A study of Mus musculus with 9 samples.

Results

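The annexins are a family of proteins that bind negatively charged phospholipids in the presence of calcium, and 9 of their genes (Anxa1, Anxa2, Anxa3, Anxa4, Anxa5, Anxa6, Anxa7, Anxa11 and Anxa13) were followed here in mouse liver. The members were taken by gene symbol from the 24421 symbols listed in the count tables. All 9 were present, and all 9 passed the filter on low counts that left 14104 genes for testing. RNA was sequenced from whole liver of C57BL/6J mice aged 5 weeks and kept without food for 6 h. The labels give 5 libraries from control littermates (wild type, WT) and 4 from littermates with O-GlcNAc transferase deleted (OGT-deficient), the enzyme that attaches single N-acetylglucosamine residues to nuclear and cytoplasmic proteins. The number of mice in the design text equals the number of libraries, and animals of both sexes were used. The sources used here do not say how Ogt was deleted, in which cells of the liver, or what the sex and litter of each animal were.

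Each annexin consists of a conserved core of repeats that binds calcium and membrane, preceded by an amino-terminal tail that differs between members and carries the binding sites for partner proteins such as S100 proteins. Family members have been linked to membrane repair, vesicle traffic, the surface binding of plasminogen and the recognition of phosphatidylserine on dying cells. In the liver, hepatocytes make up most of the tissue, and several annexins are known chiefly from bile duct epithelium, stromal cells and leukocytes.

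The libraries held 32337861 to 54130901 counts assigned to genes, so that a count of 1 was worth 0.0190 to 0.0347 CPM, the count relative to the library size after scaling by the trimmed mean of M-values. Ogt fell from 61.6 ± 10.4 CPM (SD, n = 5) in WT to 16.9 ± 2.70 CPM (SD, n = 4) in OGT-deficient liver, and no OGT-deficient library overlapped a WT library. As a check of the labelled tissue, 8 hepatocyte markers were summed. They gave 91157 to 110271 CPM over the WT libraries and 41936 to 53318 CPM over the OGT-deficient libraries. Among them, Ass1 had too few counts to be tested. This need not mean that its RNA was low, since reads aligned to more than a single place were not counted. Of 14104 genes tested, 61.1% passed an adjusted p threshold of 0.05 in the quasi-likelihood test of edgeR, 31.6% higher and 29.4% lower in OGT-deficient liver. With upper-quartile scaling in place of trimmed means, the share of calls that were higher was 62.5% in place of 51.8%, and the median log2 fold change of all tested genes moved up by 0.12.

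The annexin family rose in OGT-deficient liver with 2 exceptions, Anxa6 and Anxa11. Of the 9 members, 7 were higher (against 31.6% of all tested genes), 1 was lower (against 29.4%) and 1 was not called. A rise of at least 2-fold was called for 5 members, against 14.8% of all genes, and a rise of at least 4-fold for 3 members, against 6.12%. The 4 OGT-deficient values lay wholly above the 5 WT values for 6 members (26.2% of all genes) and wholly below them for 1 member (25% of all genes). The median log2 fold change of the members was 1.28, and that of all tested genes 0.02.

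**Figure D1:**
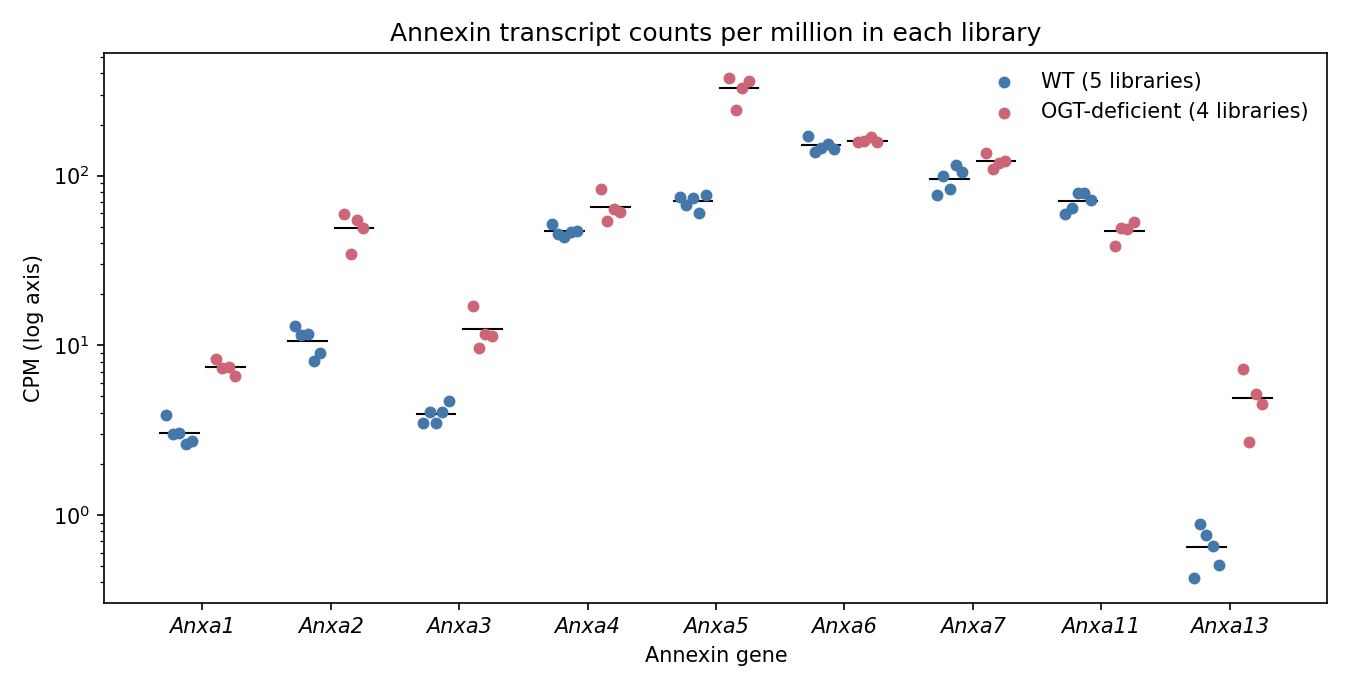
CPM (log axis) of the 9 annexin genes in each library, with WT in blue, OGT-deficient in red and a black line at each group mean. Anxa5 covered 60.2 to 77.1 CPM over WT and 242.9 to 376.1 CPM over OGT-deficient liver, whereas the Anxa6 values of the groups overlapped.

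Annexin A5 is the family member known for its tight binding to phosphatidylserine and for forming lattices on membranes. Its gene, Anxa5 (chromosome 3, 36448923 to 36475894, minus strand, GRCm38), measured 74.6, 66.9, 73.3, 60.2 and 77.1 CPM across the WT libraries (1 to 5), against 376.1, 242.9, 327.2 and 361.2 CPM across the OGT-deficient libraries (1 to 4). Every OGT-deficient library lay above the highest WT library, and OGT-deficient 2 was the lowest of its group. The WT mean was 70.4 ± 6.87 CPM (SD, n = 5) and the OGT-deficient mean 326.8 ± 59.6 CPM (SD, n = 4). On the log2 scale Anxa5 rose by 2.21 (SE 0.13, 95% confidence interval 1.94 to 2.49), with an adjusted p of 4.55e-08 in edgeR. In the ranking of all 14104 tested genes by log2 fold change Anxa5 stood at place 707.

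Annexin A2 forms a complex with S100A10, links membranes to the actin cytoskeleton and takes part in the binding of plasminogen at the cell surface. Anxa2 (chromosome 9, 69453620 to 69491795, plus strand) measured 12.9, 11.5, 11.7, 8.11 and 9.06 CPM across the WT libraries (1 to 5), against 59.6, 34.5, 54.4 and 49.1 CPM across the OGT-deficient libraries (1 to 4). The groups did not overlap, and OGT-deficient 2 was the lowest of its group. The log2 fold change was 2.21 (SE 0.17, 95% interval 1.85 to 2.57, adjusted p = 3.59e-07 in edgeR), so Anxa2 and Anxa5 rose by nearly the same factor from WT levels that differed. Anxa2 stood at place 712 of the 14104 genes.

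The start-site regions of these 2 genes had little in common in 4 short motifs. The 250 bases before the RefSeq start site are given below for Anxa2 and Anxa5, which rose alike, and for Anxa11, which fell, with motif matches on either strand in capitals (GRCm38.p6 sequence from RefSeq, printed 5′ to 3′ on the strand of the gene). The windows are chr9:69453433-69453682 (plus strand), chr3:36475888-36476137 (minus strand) and chr14:25841905-25842154 (plus strand), and 25.2%, 2.8% and 0% of their bases lie in a GENCODE exon of the same gene.
Anxa2: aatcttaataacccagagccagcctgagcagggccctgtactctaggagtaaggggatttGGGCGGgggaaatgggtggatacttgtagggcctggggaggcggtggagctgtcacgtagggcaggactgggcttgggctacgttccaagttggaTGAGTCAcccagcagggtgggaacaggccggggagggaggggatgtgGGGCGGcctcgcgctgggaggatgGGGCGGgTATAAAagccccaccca
Anxa5: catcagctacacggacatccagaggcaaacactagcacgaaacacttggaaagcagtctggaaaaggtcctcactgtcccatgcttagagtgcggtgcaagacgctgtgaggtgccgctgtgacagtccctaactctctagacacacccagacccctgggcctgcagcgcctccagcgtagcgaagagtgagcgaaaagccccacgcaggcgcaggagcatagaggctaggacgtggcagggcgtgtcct
Anxa11: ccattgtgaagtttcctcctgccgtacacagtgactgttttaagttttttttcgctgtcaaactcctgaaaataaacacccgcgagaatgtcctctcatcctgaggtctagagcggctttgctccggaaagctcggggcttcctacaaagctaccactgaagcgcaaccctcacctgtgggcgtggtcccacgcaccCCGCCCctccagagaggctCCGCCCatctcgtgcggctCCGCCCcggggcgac
The motifs searched were the TATA box TATAAA, the GC box GGGCGG, the AP-1 site TGANTCA and the TEAD site GGAATG, none of which overlapped another in these windows. The Anxa2 window held a TATA box from 17 to 12 bases before the start, an AP-1 match from 95 to 89 bases before it, and 3 GC boxes. In the Anxa5 window none of the 4 motifs was found, and the Anxa11 window held 3 GC boxes, all on the opposite strand. Over 32851 RefSeq promoter windows of the same length, 12.4% held the TATA motif, 32.7% the GC box, 6.75% the AP-1 motif and 12.6% the TEAD motif.

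RefSeq start sites were at hand for 6 of the 9 members (8 start sites), and not for Anxa3, Anxa6 and Anxa13. The Anxa1 window held a TATA match from 32 to 27 bases before the start and a TEAD match 236 to 231 bases before it. The whole of this window (100%) lies in a GENCODE exon of Anxa1. The Anxa4 windows at its 2 listed start sites held none of the motifs. Those of Anxa7 held 1 and 4 GC boxes, with 1 of these shared because the windows overlap. GENCODE exons of Anxa7 cover 0% of the former and 76.8% of the latter Anxa7 window. No motif of the 4 was present in every window of the members that rose and had a start site at hand, which leaves out Anxa3 and Anxa13.

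Annexin A13 is a member known from the apical membrane of intestinal and kidney epithelium. Anxa13 (chromosome 15, 58341471 to 58389244, minus strand) had the largest fold change and the lowest WT level of the 9 members. Its counts were 20, 42, 27, 19 and 17 in WT 1 to 5, or 0.427, 0.882, 0.757, 0.659 and 0.507 CPM. In OGT-deficient 1 to 4 the counts were 343, 107, 272 and 184, or 7.23, 2.70, 5.18 and 4.50 CPM. The groups did not overlap, and the OGT-deficient libraries spread over a 2.68-fold range. On the log2 scale Anxa13 rose by 2.92 (SE 0.30, adjusted p = 3.87e-06 in edgeR).

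Annexin A3 has been used as a marker of proliferating epithelial cells and of myeloid cells. Anxa3 (chromosome 5, 96793339 to 96845966, plus strand) stood at 3.46, 4.03, 3.48, 4.06 and 4.68 CPM across the WT libraries (1 to 5), against 17.1, 9.62, 11.6 and 11.4 CPM across the OGT-deficient libraries (1 to 4). The groups did not overlap, with OGT-deficient 1 the highest and OGT-deficient 2 the lowest of its group. Its rise was 1.66 on the log2 scale (SE 0.17, adjusted p = 3.61e-06 in edgeR).

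Annexin A1 is a glucocorticoid-induced protein that limits leukocyte recruitment through formyl peptide receptors. Anxa1 (chromosome 19, 20373428 to 20390944, minus strand) measured 3.87, 2.98, 3.03, 2.64 and 2.71 CPM across the WT libraries (1 to 5), against 8.34, 7.31, 7.43 and 6.61 CPM across the OGT-deficient libraries (1 to 4). The lowest OGT-deficient library lay above the highest WT library. Its rise was 1.28 on the log2 scale (SE 0.14, adjusted p = 8.33e-06 in edgeR). Of its 3 receptor genes, Fpr1 stood at 2.57 ± 0.651 and 2.80 ± 1.23 CPM (adjusted p = 0.745 in edgeR) and Fpr2 at 0.678 ± 0.239 and 0.739 ± 0.278 CPM (adjusted p = 0.799), while Fpr3 had no count in any library.

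Annexin A4 is an epithelial member that is abundant in secretory ducts, bile ducts included. Anxa4 (chromosome 6, 86736840 to 86793584, minus strand) was at 51.5, 45.0, 43.7, 46.7 and 47.4 CPM across the WT libraries (1 to 5), against 83.3, 53.7, 63.3 and 60.9 CPM across the OGT-deficient libraries (1 to 4). The groups did not overlap, and WT 1 and OGT-deficient 2 were nearest to each other. The log2 fold change of 0.48 (SE 0.11, 95% interval 0.23 to 0.72) passed the test (adjusted p = 0.00273 in edgeR).

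Annexin A7, also called synexin, was described through its promotion of membrane fusion in exocytosis. Anxa7 (chromosome 14, 20455260 to 20480133, minus strand) measured 76.4, 99.9, 83.5, 115.4 and 105.2 CPM across the WT libraries (1 to 5), against 135.8, 108.7, 118.9 and 122.7 CPM across the OGT-deficient libraries (1 to 4). The groups overlapped, since OGT-deficient 2 lay below WT 4. The log2 fold change of 0.34 (SE 0.12, 95% interval 0.08 to 0.60) had an adjusted p of 0.0252 in edgeR. The call was lost without WT 1 (adjusted p = 0.0505), WT 3 (0.0597), OGT-deficient 1 (0.0963) or OGT-deficient 4 (0.0694), so this rise is the least certain of the 7.

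Annexin A6 carries a duplicated core and is an abundant annexin of endosomes and the plasma membrane. Anxa6 (chromosome 11, 54979108 to 55033445, minus strand) stood at 171.3, 137.4, 145.1, 154.4 and 144.0 CPM across the WT libraries (1 to 5), against 156.7, 159.5, 167.8 and 157.1 CPM across the OGT-deficient libraries (1 to 4). All 4 OGT-deficient values lay within the WT range. The log2 fold change of 0.09 (SE 0.08) did not pass the test (adjusted p = 0.340 in edgeR), and its 95% interval of -0.08 to 0.27 leaves room for a small rise. With upper-quartile scaling the log2 fold change was 0.21 and the adjusted p 0.0317.

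Annexin A11 has a long disordered tail, binds RNA granules and lysosomes and has S100A6 as a partner. Anxa11 (chromosome 14, 25842156 to 25886804, plus strand) was the only member of the 9 that fell. It measured 59.7, 64.1, 78.9, 78.5 and 71.4 CPM across the WT libraries (1 to 5), against 38.3, 48.8, 48.5 and 53.6 CPM across the OGT-deficient libraries (1 to 4). The groups did not overlap, and OGT-deficient 1, the highest library of its group for 7 other members, was here the lowest. Anxa11 changed by -0.58 on the log2 scale (SE 0.11, 95% interval -0.82 to -0.33, adjusted p = 0.000785 in edgeR).

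**Figure D2:**
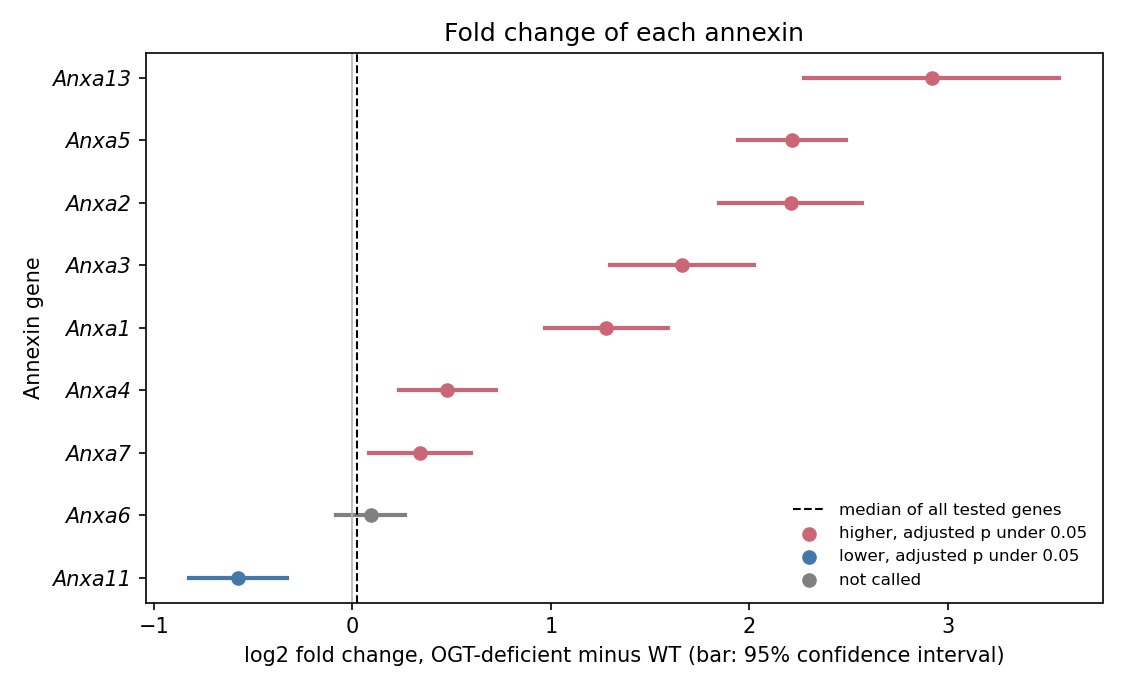
Log2 fold change (OGT-deficient minus WT) of each annexin with its 95% confidence interval, in red or blue where the adjusted p was under 0.05, and a dashed line at the median of all tested genes. The members spread from -0.58 for Anxa11 to 2.92 for Anxa13, and the interval of Anxa6 includes 0.

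The family has 3 further genes in the tables, and these were measured at low levels. Anxa9, whose product lacks the usual calcium-binding residues, rose from 0.536 ± 0.203 to 1.34 ± 0.211 CPM (log2 fold change 1.29, adjusted p = 0.00191 in edgeR), with no overlap between the groups. Anxa8 had counts of 0 to 7 in WT libraries and 2 to 14 in OGT-deficient libraries and was not tested. Anxa10 had no count in 8 of 9 libraries, against 4 counts in OGT-deficient 3, and was not tested.

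The members lie on 8 chromosomes, with Anxa7 and Anxa11 sharing chromosome 14. No exonic base of any member is covered by another listed gene. In 8 of the 9 no stretch of 50 bases of the longest transcript occurs in a transcript of another listed gene. The share in Anxa4 was 1.32%. Exons outside the longest transcript, unlisted genes and the rest of the genome were not searched. Alignments to more than a single place, which entered no gene count, numbered 0.314 to 1.02 per gene read over the WT libraries, against 0.205 to 0.224 over the OGT-deficient libraries.

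Levels of different annexins were compared per kilobase of exon. In WT liver Anxa6 came first with 51.3 ± 4.48 CPM per kilobase (SD, n = 5), followed by Anxa5 with 39.6 ± 3.86, and the libraries of these genes did not overlap. Anxa11 (17.1 ± 2.07) and Anxa7 (16.0 ± 2.66) overlapped, Anxa4 (10.1 ± 0.636) and Anxa2 (2.86 ± 0.536) stood apart from their neighbours, Anxa3 (1.08 ± 0.138) and Anxa1 (1.05 ± 0.168) overlapped, and Anxa13 came last (0.479 ± 0.137).

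In OGT-deficient liver Anxa5 came first with 183.9 ± 33.5 CPM per kilobase (SD, n = 4), ahead of Anxa6 with 54.7 ± 1.76 and Anxa7 with 20.3 ± 1.87, each without overlap. Anxa4 (14.1 ± 2.73), Anxa2 (13.2 ± 2.90) and Anxa11 (11.4 ± 1.56) overlapped with their neighbours in this order, as did Anxa13 (3.64 ± 1.39), Anxa3 (3.41 ± 0.894) and Anxa1 (2.55 ± 0.245). The level of Anxa5 relative to Anxa6 within a library ranged from 0.642 to 0.883 over WT and from 2.51 to 3.96 over OGT-deficient liver, so the order of these genes was the opposite in every library of the 2 groups.

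The family total was 139.6 ± 4.75 CPM per kilobase (SD, n = 5) in WT and 307.3 ± 41.1 (SD, n = 4) in OGT-deficient liver. Anxa5 made up 28.4 ± 2.41% of it in WT and 59.5 ± 3.38% in OGT-deficient liver. Anxa6 went from 36.7 ± 2.36% to 18.1 ± 2.79% of the total while its own level overlapped between the groups. Anxa2 went from 2.05 ± 0.388% to 4.28 ± 0.475%, and Anxa11 from 12.2 ± 1.54% to 3.80 ± 0.846%.

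**Figure D3:**
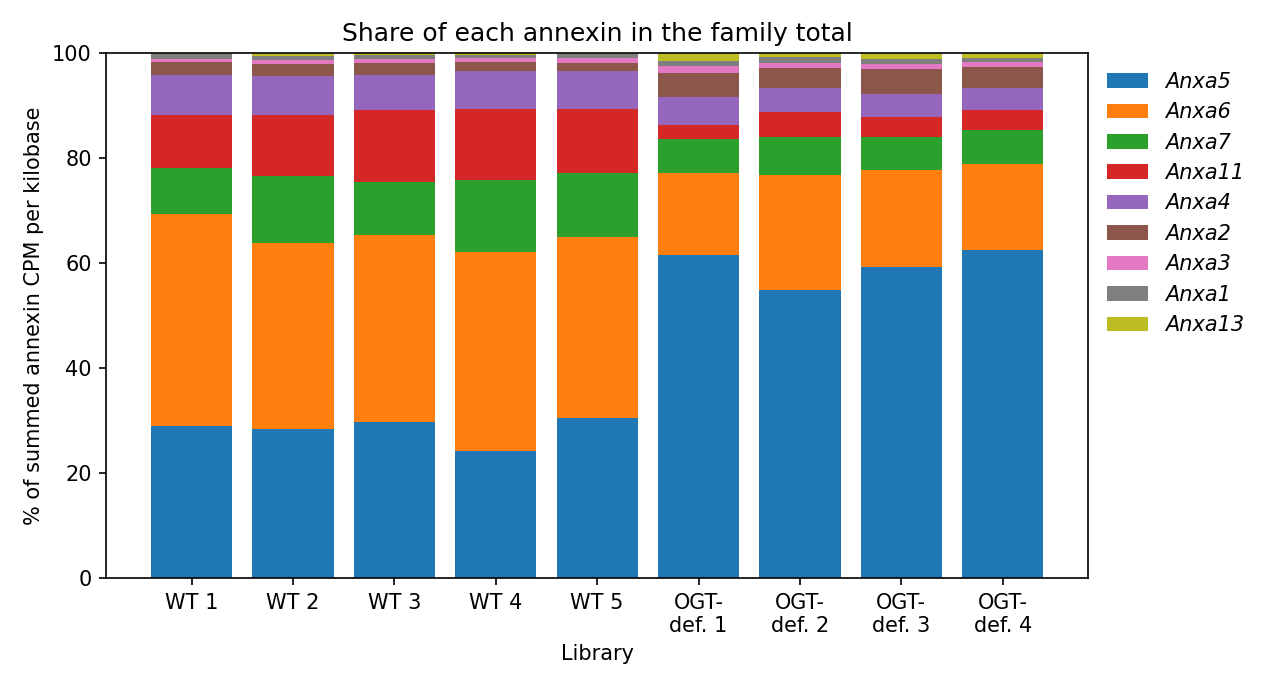
Share of each annexin in the summed annexin level (CPM per kilobase of exon) of every library, as stacked bars that add to 100%. Anxa5 averaged 28.4% of the total in the 5 WT libraries and 59.5% in the 4 OGT-deficient libraries.

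OGT-deficient 1 was the highest library of the group for 7 members and OGT-deficient 2 the lowest for 6 (Anxa2, Anxa3, Anxa4, Anxa5, Anxa7 and Anxa13). After group means were removed from log2 CPM, the correlation over the 9 libraries among members that rose ran from -0.61 (Anxa1 with Anxa7) and -0.29 (Anxa2 with Anxa7) to 0.75 (Anxa2 with Anxa5) and 0.79 (Anxa3 with Anxa4), and it was -0.79 between Anxa1 and Anxa11. These values describe libraries that share depth and scaling, and they carry no test. By the same measure the 2 tested genes most like Anxa2 were Terf2 (0.97) and Arhgap44 (0.96), and those most like Anxa5 were Gtf2f1 (0.95) and Nupr1 (0.95), each picked as the highest of 14104 genes over only 9 libraries.

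**Figure D4:**
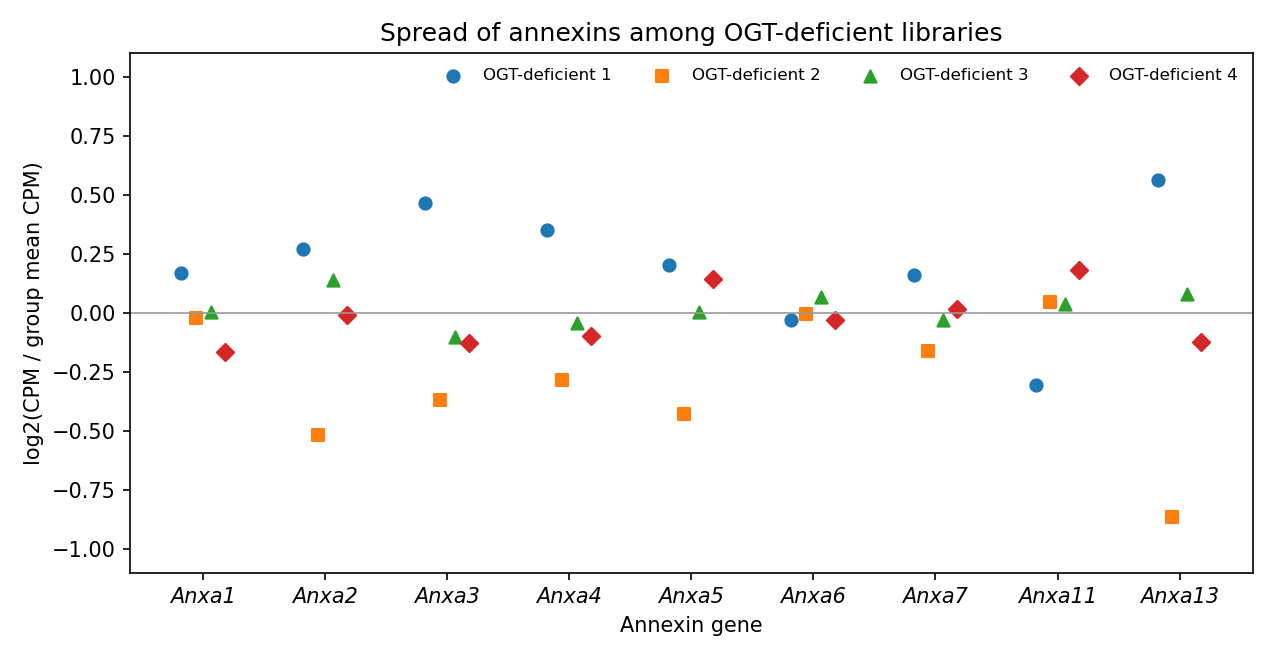
Log2 ratio of each OGT-deficient library's CPM to the mean of the 4 OGT-deficient libraries, for each annexin (a symbol per library). OGT-deficient 2 (squares) lies lowest for 6 of the 9 genes and OGT-deficient 1 (circles) highest for 7.

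Most markers of 3 cell types were higher in OGT-deficient liver, where 31.6% of all tested genes were higher and 29.4% lower. Of 12 cholangiocyte markers 11 were tested, 10 rose and 1 fell, and their summed level was 51.0 to 83.0 CPM in WT and 183.1 to 320.8 CPM in OGT-deficient liver. OGT-deficient 2 held the lowest of the latter sums and OGT-deficient 1 the highest. Of 12 monocyte and recruited macrophage markers 11 rose, with summed levels of 56.4 to 86.5 and 231.8 to 356.1 CPM, again lowest in OGT-deficient 2 and highest in OGT-deficient 1 within that group. These lists share the gene Spp1, which had the highest mean of any marker in either list. Spp1 averaged 156.9 ± 32.8 CPM (SD, n = 4) over the OGT-deficient libraries, against 34.5 ± 9.85 CPM (SD, n = 5) over WT. The sums of these lists and their shared order of libraries are therefore not independent, and sums without Spp1 were not taken. Of 12 stellate cell and myofibroblast markers 11 rose, from sums of 237.5 to 500.5 CPM to sums of 1018 to 1389 CPM. This list had another order within the OGT-deficient group, with OGT-deficient 4 the lowest and OGT-deficient 3 the highest, and no marker of these 3 lists was at 0 in all libraries.

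Kupffer cell markers summed to 458.2 to 652.5 CPM in WT and 434.9 to 769.0 CPM in OGT-deficient liver, with 2 of 8 higher and 1 lower. Beside this and every other count of this paragraph stand the shares of all tested genes, 31.6% higher and 29.4% lower. Endothelial markers had 1 of 8 higher and 3 lower (350.7 to 482.1 and 222.7 to 414.5 CPM). Neutrophil markers had 2 of 4 tested higher, none of 5 tested T and NK cell markers was called, and mesothelial markers had 2 of 5 tested higher, with summed levels of at most 13.9 CPM in any library for each of these 3 lists. Of 7 tested hepatocyte markers 6 fell. Of 4 erythroid markers 2 were tested (median log2 fold change -1.27). Klf1 fell from 6.37 ± 1.31 to 1.12 ± 0.347 CPM (log2 fold change -2.50, adjusted p = 1.81e-06 in edgeR), whereas Alas2 was not called (-0.05). Hba-a1 had no count, which need not mean that its RNA was absent, since reads aligned to more than a single place were not counted. The part of cell type markers in the annexin values was not tested, and in whole tissue a change in the number of cells of a type cannot be told apart from a change in RNA per cell.

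Binding partners of the annexins were examined next. Of 8 partner genes of the EF-hand protein family 6 rose, 1 fell and 1 was not called (median log2 fold change 1.62). Of all tested genes 31.6% were higher and 29.4% lower. S100a10, the partner of annexin A2, rose from 60.8 ± 11.9 to 140.0 ± 23.3 CPM (log2 fold change 1.20), S100a11, a partner of annexin A1, from 5.73 ± 1.06 to 45.2 ± 5.92 CPM (2.98), and S100a6, a partner of annexin A11, from 1.04 ± 0.188 to 7.68 ± 3.01 CPM (2.88). S100a6 thus moved in the opposite direction to Anxa11. The gene that fell, S100a1 (log2 fold change -0.80), and the gene not called, the penta-EF-hand gene Pdcd6 (-0.15), were named after their values were seen.

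Genes of plasminogen activation, to which the complex of annexin A2 and S100A10 contributes at the cell surface, numbered 8 among those tested. Of these 5 rose and 2 fell, against 31.6% and 29.4% of all tested genes, and the list's median was 1.31 on the log2 scale. Plat, which encodes tissue plasminogen activator, rose from 0.513 ± 0.148 to 6.48 ± 1.82 CPM (log2 fold change 3.65), and Serpine2, a protease inhibitor, from 2.12 ± 0.796 to 14.96 ± 4.00 CPM (2.85). The genes that fell were the plasmin inhibitor gene Serpinf2 (log2 fold change -1.24) and the plasminogen gene Plg (-1.13), the latter named after its values were seen. Hepatocytes are the known source of these 2 secreted proteins, and which cells gave the values here was not tested.

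Among 12 genes of membrane repair and annexin-associated scaffolds 6 rose, 3 fell and 3 were not called (median log2 fold change 0.32), where 31.6% of all tested genes rose and 29.4% fell. Myof, a ferlin of membrane repair, rose from 3.61 ± 0.751 to 18.4 ± 4.93 CPM (log2 fold change 2.34). Cav1 and Ptrf, which encode the caveolar proteins caveolin 1 and cavin 1, rose by 1.93 and 1.91 on the log2 scale. The 3 that fell were the calpain genes Capn1 (-0.39) and Capn2 (-0.27) and the ESCRT-associated gene Pdcd6ip (-0.38), named after their values were seen.

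Genes that expose or recognise phosphatidylserine, the lipid that annexin A5 binds, had 5 of 11 tested members higher and 3 lower, against 31.6% and 29.4% of all tested genes (list median -0.13). Mfge8, a bridging protein for the uptake of dying cells, rose from 17.6 ± 1.98 to 58.8 ± 7.34 CPM (log2 fold change 1.74). Gas6, the ligand of the TAM receptors, rose from 32.5 ± 4.51 to 123.1 ± 22.4 CPM (1.92), and the scramblase gene Ano6 from 13.9 ± 2.24 to 34.5 ± 2.28 CPM (1.31). The other genes that rose were the TAM receptor genes Tyro3 (2.74) and Axl (0.55), named after their values were seen. The genes that fell were the TAM receptor gene Mertk, Xkr8 and Stab2, also named after their values were seen, with log2 fold changes of -0.56, -0.40 and -0.57.

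Phospholipases A2, which annexins were first reported to inhibit, had 3 of 7 tested genes higher and 2 lower, with a median log2 fold change of 0.04. Of all tested genes 31.6% were higher and 29.4% lower, which also holds beside the copine counts. The copines, another family of calcium-dependent phospholipid-binding proteins, had 1 of 4 tested genes higher (Cpne8, log2 fold change 1.34) and 2 lower (Cpne2, -0.84, and Cpne3, -0.29), and a median of -0.21. The median of the annexins, 1.28, stood above those of these 2 lists, and no test compared the lists.

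**Figure D5:**
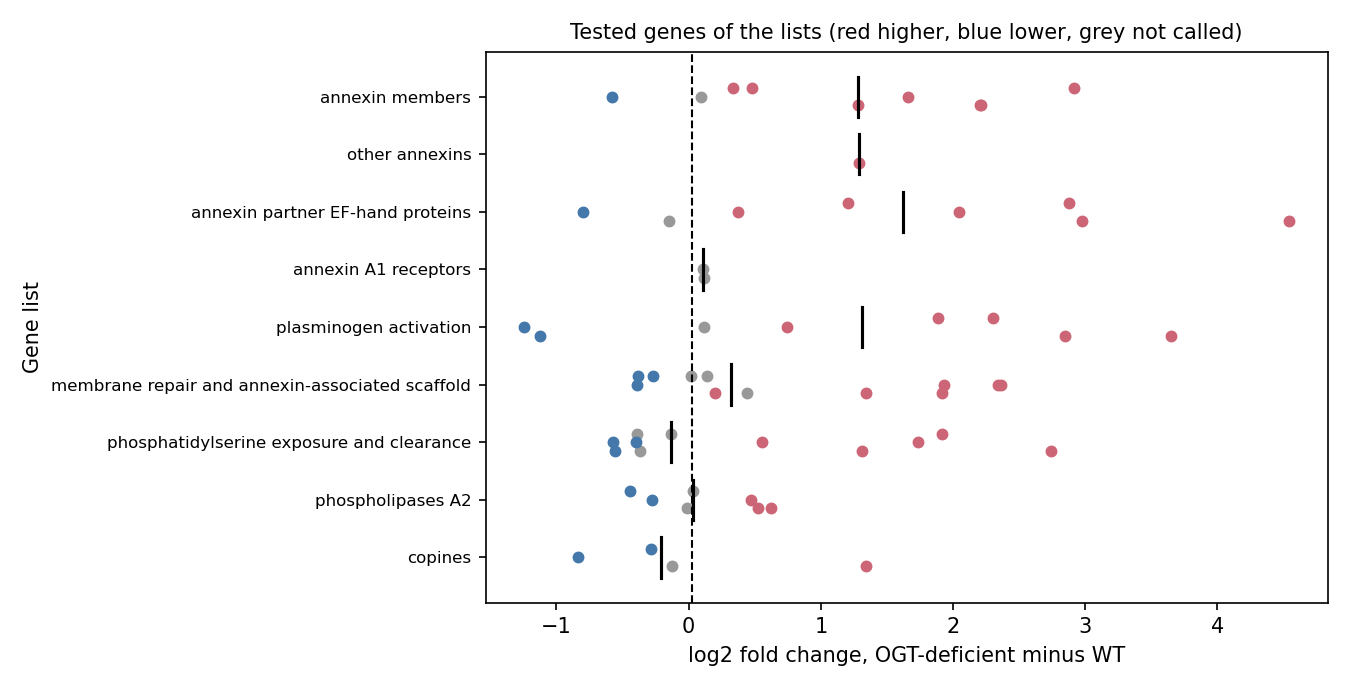
Log2 fold change (OGT-deficient minus WT) of every tested gene in the annexin family and the related lists, red for higher, blue for lower and grey for not called, with a black bar at each list's median and a dashed line at the median of all tested genes. The annexin median was 1.28 and the copine median -0.21.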

How the data were processed

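Reads had been processed with TopHat2 2.1.0 and HTSeq 0.9.1 on mm10 (GRCm38), as the submitters' processing notes name them. The authors deposited raw whole-number read counts for 24421 gene symbols per library, followed by 5 summary lines, which stayed out of library sizes and tests. The annotation release, strand setting and library kit were not given in the sources used here. Libraries took their groups from their titles. Reads outside genes were 8.95 to 10.7% of uniquely aligned reads. Counts were tested in R 4.3.3 with edgeR 4.0.16 (filterByExpr, trimmed mean of M-values, glmQLFit and glmQLFTest on group, Benjamini-Hochberg over all 14104 genes, threshold 0.05, prior count 0.125). Standard errors are the log2 fold change over the root of F. In 16 pairs of libraries of the same group, counts differed by 23.9 to 135.0 chi-square units per degree of freedom, and none was taken for a duplicate. P-values weigh the difference between the groups against the spread between libraries of the same group. Coordinates and lengths (union of exons) came from GENCODE M21, and 1 listed symbol was matched through a RefSeq synonym (Cavin1, listed as Ptrf).

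The members, gene lists and alternatives were chosen with earlier results of these data known. Named genes were all annexins, up to 3 tested genes with the smallest p in each list, and genes nearest to a member in log2 CPM (prior count 2). Alternatives were other scalings and filters, DESeq2 1.42.0, limma voom 3.58.1, a replicate block, leaving out the 30 most abundant genes, and leaving out each library. Figures used matplotlib 3.10.9.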

Additional observations from a re-analysis of the deposited data

Results flagged for a closer look

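Anxa10 had 4 counts in OGT-deficient 3 (0.0762 CPM) and 0 in every other library, so that this library stood apart from the others of its group. A total of 3 counts in that library corresponds to 0.0571 CPM. Of 24 groups of annexin values examined this way, 1 stood apart, and chance sets about 1 in 20 apart. That rate does not apply to Anxa10, because any count in a single library stands apart from a group otherwise at 0.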

How the results depend on the processing

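Of 153 values of the 9 annexins under 17 alternatives each, 148 kept their direction and side of the threshold, and none changed direction. The exceptions were Anxa6, called higher with upper-quartile factors, and Anxa7, which lost its call without WT 1, WT 3, OGT-deficient 1 or OGT-deficient 4. Over all alternatives the log2 fold change was 2.13 to 2.34 for Anxa5, 2.09 to 2.33 for Anxa2, 2.66 to 3.11 for Anxa13 and -0.67 to -0.46 for Anxa11. Without a library in turn, 7959 to 8472 genes were called, 6 to 7 of the members were higher and 1 was lower. With the replicate number as a block, 7869 genes were called against 8614, and the block changed no annexin call. Correlations of deviations between same-numbered libraries were -0.10 to 0.10. Among the OGT-deficient libraries only OGT-deficient 4 correlated best with the WT library of its own number, so the numbers were not taken as pairs. With the length of the longest transcript in place of the union of exons, Anxa5 made up 21.7% of the annexin total in WT and 50.03% in OGT-deficient liver and Anxa6 32.2% in WT. Anxa7 then stood above Anxa11 in WT, and Anxa5 and Anxa7 overlapped there, while in OGT-deficient liver Anxa13 came last, and Anxa3 stood above Anxa1 without overlap. Depth limits Anxa8, Anxa9, Anxa10 and Anxa13, whose WT libraries held at most 42 counts each.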
